A study of Mus musculus with 9 samples.

Results

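The apolipoprotein genes Apoa1, Apoa2, Apoa4, Apoa5, Apob, Apoc1, Apoc3, Apoe, Apoh and Apom were described in hepatic stellate cells (HSCs) and in activated fibroblasts of fibrotic mouse livers. These 10 genes were taken by their symbols from the 24453 genes of the expression table. RNA sequencing covered 9 libraries of C57BL/6J liver cells, 3 in each of 3 groups, and each library held RNA of cells pooled from 3 to 5 mice. A density gradient was used to separate the HSCs from normal livers of wild-type mice. CCl4-fib were GFP-positive, CD45-negative cells sorted from Col1a2-GFP Tg mice that received carbon tetrachloride (CCl4) 2 times per week for 8 weeks. NASH-fib were sorted in the same way from MC-COL mice, which carry the Col1a2-GFP transgene and lack the melanocortin 4 receptor (MC4R-KO), after 20 weeks of Western diet from an age of 8 weeks. Both fibroblast groups therefore shared a GFP reporter driven by a collagen promoter and a sorting step, which the HSCs did not have, and they differed from each other in Mc4r genotype, diet and toxin together. Genotype, treatment and mode of isolation cannot be told apart in these comparisons.

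Apolipoproteins are the protein part of lipoproteins, the particles that carry triglycerides and cholesterol in the blood. ApoB is the structural protein of very low density and low density lipoproteins, the A group is mostly carried on high density lipoproteins, and the C group tunes the breakdown of triglycerides. ApoE is the ligand by which remnant particles are taken up through receptors on the cell surface. In the liver hepatocytes make most of these proteins, while ApoE is also made by macrophages and by stellate cells.

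Reads on genes numbered between 3071070 and 5634273 per library, with medians of 3740541 in HSCs, 5258041 in CCl4-fib and 4550212 in NASH-fib. All values below are normalized reads, that is reads multiplied by 1 factor per library so that every library has nearly the same sum, and 1 to 3 reads are a value of at most 4.37. On Mc4r, the gene knocked out in MC-COL mice, 4 and 13 reads fell in NASH-fib replicates 1 and 2 and 0 in all other libraries, too few to check the genotype. Summed over 9 markers of activated fibroblasts such as Col1a1 and Acta2, the value was 51720 to 59050 in CCl4-fib, 29390 to 33610 in NASH-fib and 6923 to 12180 in HSCs. Acta2 and Postn did not follow this order. The mean of Acta2 was 6380 in CCl4-fib and 7710 in NASH-fib, and that of Postn was highest in HSCs (4523, against 1878 and 1457). The sum of 10 markers of quiescent stellate cells was 33690 to 43610 in HSCs, 5621 to 9362 in CCl4-fib and 2784 to 7276 in NASH-fib. Markers of other liver cells were read in every library too. The sum of 15 hepatocyte markers such as Alb was 24530, 35970 and 51870 in HSC replicates 1, 2 and 3, against 2165, 2062 and 3017 in CCl4-fib, while NASH-fib had 36350, 7821 and 34980, and none of the 15 genes was at 0 in any library. CCl4-fib was thus the group lowest in hepatocyte markers, and NASH-fib replicate 2 was lower than the other NASH-fib libraries. The 13 macrophage markers summed to 5491 to 18890 in HSCs, 490.5 to 981.5 in CCl4-fib and 3124 to 7022 in NASH-fib, and 10 markers of sinusoidal endothelial cells summed to 8168 to 17080, 377 to 428.4 and 1244 to 4060 in the same order. The 7 cholangiocyte markers went the other way, with 72.48 to 231.9 in HSCs, 3488 to 4778 in CCl4-fib and 6103 to 11860 in NASH-fib. The part of these cells in the apolipoprotein values was not tested, and in RNA of pooled cells fewer cells of a type and less RNA per cell cannot be told apart. The correlation of 2 libraries' deviations from their group means over the genes tested ran from -0.588 to 0.645 over the pairs of libraries of different groups. It was highest for NASH-fib replicate 1 with HSC replicate 2 and next for NASH-fib replicate 3 with HSC replicate 3 (0.514). The column names of the highest pair begin with the same date-like prefix, and those of the next pair do not. CCl4-fib replicate 1 has that prefix too, with correlations of -0.127 to NASH-fib replicate 1 and -0.072 to HSC replicate 2.

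The genes lie in 2 clusters and at 4 single places of the mouse genome (mm10). Apoa1, Apoc3, Apoa4 and Apoa5 span 43290 bases of chromosome 9, where Apoa1 (NM_009692, chr9:46228630-46230469) and Apoc3 (NM_001289755, chr9:46233050-46235299) are 2580 bases apart. Apoc1 (NM_001110009, chr7:19689480-19692659) and Apoe (NM_009696, chr7:19696244-19699188) are 3584 bases apart on chromosome 7. Apob (NM_009693) lies at chr12:7977677-8016839, Apoh (NM_013475) at chr11:108395297-108414396, Apoa2 (NM_013474) at chr1:171225054-171226379 and Apom (NM_018816) at chr17:35128997-35131752. Values are of whole genes counted over exons on either strand, so reads of an antisense partner cannot be told apart. In the GENCODE annotation 632 of 1815 exonic bases of Apoa4 (NM_007468, chr9:46240844-46243458) are shared with the antisense gene Gm10680, and 524 of 2522 exonic bases of Apoa5 (NM_080434, chr9:46268608-46271919) with Gm47544.

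The 250 bases upstream of the start are shown for the 3 genes with the largest difference between CCl4-fib and HSCs, Apob, Apoh and Apoa5, and for Apoe, which was not called by limma in any comparison. They are RefSeq sequence of GRCm38.p6, read 5′ to 3′ on the strand of the gene, for the start that the expression table uses, and RefSeq promoters matched 8 of the 10 genes (not Apoc1 and Apoc3). Capitals mark matches to 6 short motifs searched on both strands.
Apob, chr12:7977427-7977676, plus strand: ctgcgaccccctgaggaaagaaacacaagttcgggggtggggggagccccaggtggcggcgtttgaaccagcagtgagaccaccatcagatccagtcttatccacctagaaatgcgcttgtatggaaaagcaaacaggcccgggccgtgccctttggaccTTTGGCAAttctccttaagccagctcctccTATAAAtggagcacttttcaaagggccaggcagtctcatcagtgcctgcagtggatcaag
Apoh, chr11:108395047-108395296, plus strand: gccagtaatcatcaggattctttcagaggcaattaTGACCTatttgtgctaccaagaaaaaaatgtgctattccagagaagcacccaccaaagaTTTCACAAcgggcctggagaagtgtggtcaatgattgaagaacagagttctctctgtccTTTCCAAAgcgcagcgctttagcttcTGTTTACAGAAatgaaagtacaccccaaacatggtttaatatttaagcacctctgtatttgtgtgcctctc
Apoa5, chr9:46268358-46268607, plus strand: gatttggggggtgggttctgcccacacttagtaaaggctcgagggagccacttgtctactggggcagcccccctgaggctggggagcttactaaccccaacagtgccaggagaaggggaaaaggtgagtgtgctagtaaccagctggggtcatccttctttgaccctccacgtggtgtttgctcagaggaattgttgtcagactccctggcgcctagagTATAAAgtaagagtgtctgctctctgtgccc
Apoe, chr7:19699189-19699438, minus strand: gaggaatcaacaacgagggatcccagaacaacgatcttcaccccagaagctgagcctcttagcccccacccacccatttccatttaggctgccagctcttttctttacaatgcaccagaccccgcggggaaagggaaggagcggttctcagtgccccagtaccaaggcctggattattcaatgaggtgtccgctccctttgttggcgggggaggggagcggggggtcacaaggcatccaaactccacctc
The motifs were CAAAGTCCA for HNF4, AGGTCA for a nuclear receptor half-site, GTTAAT for an HNF1 half-site, TGTTTAC for FOXA, TTNNGNAA for C/EBP and TATAAA for the TATA box. In Apob, TTTGGCAA began 90 bases and TATAAA 60 bases upstream of the start, and in Apoa5 the single match was TATAAA at 31 bases. In Apoh, TGTTTAC began at 71 bases and overlapped 1 of 3 matches to the C/EBP motif, and an AGGTCA on the opposite strand began at 215 bases. The windows of Apoe, Apoa1, Apoa4 and Apom held none of the 6 motifs. Over all 32851 promoters in the RefSeq table, TTNNGNAA was in 36.8%, AGGTCA in 14.0%, TATAAA in 12.4%, GTTAAT in 6.43%, TGTTTAC in 3.17% and CAAAGTCCA in 0.384%. Of the 8 genes, TATAAA was found in 3 (Apoa2, Apoa5 and Apob), TGTTTAC in 2 (Apoa2 and Apoh), TTNNGNAA in 2 (Apob and Apoh), AGGTCA in 1 (Apoh), and GTTAAT and CAAAGTCCA in 0. A match is only a match of letters in these windows.

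In HSCs the 10 genes together held 0.248%, 0.16% and 0.419% of the reads of replicates 1, 2 and 3. The share was 0.0613%, 0.0688% and 0.0894% in CCl4-fib, below every HSC library, while NASH-fib had 0.164%, 0.132% and 0.245%. Per kilobase of exon, Apoc1 had the highest level in HSCs at 5109 ± 1431 normalized reads per kb (SD, n = 3), next to Apoa2 at 4783 ± 2732 and Apoe at 2784 ± 1344. Apoc3 followed at 1771 ± 1591 and Apoh at 1548 ± 893.5, then Apoa1 at 301.2 ± 282.3, Apom at 174.9 ± 110.8, Apoa5 at 66.44 ± 59.23, Apob at 46.82 ± 11.04 and Apoa4 at 2.153 ± 3.139. Neighbours in this order differed by less than the larger of their SDs, except Apoh and Apoa1 and, at the end, Apob and Apoa4. The counting kept at most 3 reads per position, so that the values of genes with many reads per base are compressed, and Apoa2, Apoc1 and Apoe reached 5.83, 5.32 and 3.54 reads per base of exon in their highest library. In CCl4-fib the first 3 genes were the same and lay at 1343 ± 648.3 (Apoc1), 1304 ± 730.5 (Apoa2) and 1269 ± 136.5 (Apoe), while Apob and Apoa5 were last at 0.5668 ± 0.2039 and 0.6335 ± 0.2572, below Apoa4 at 4.648 ± 0.5829.

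**Figure D1:**
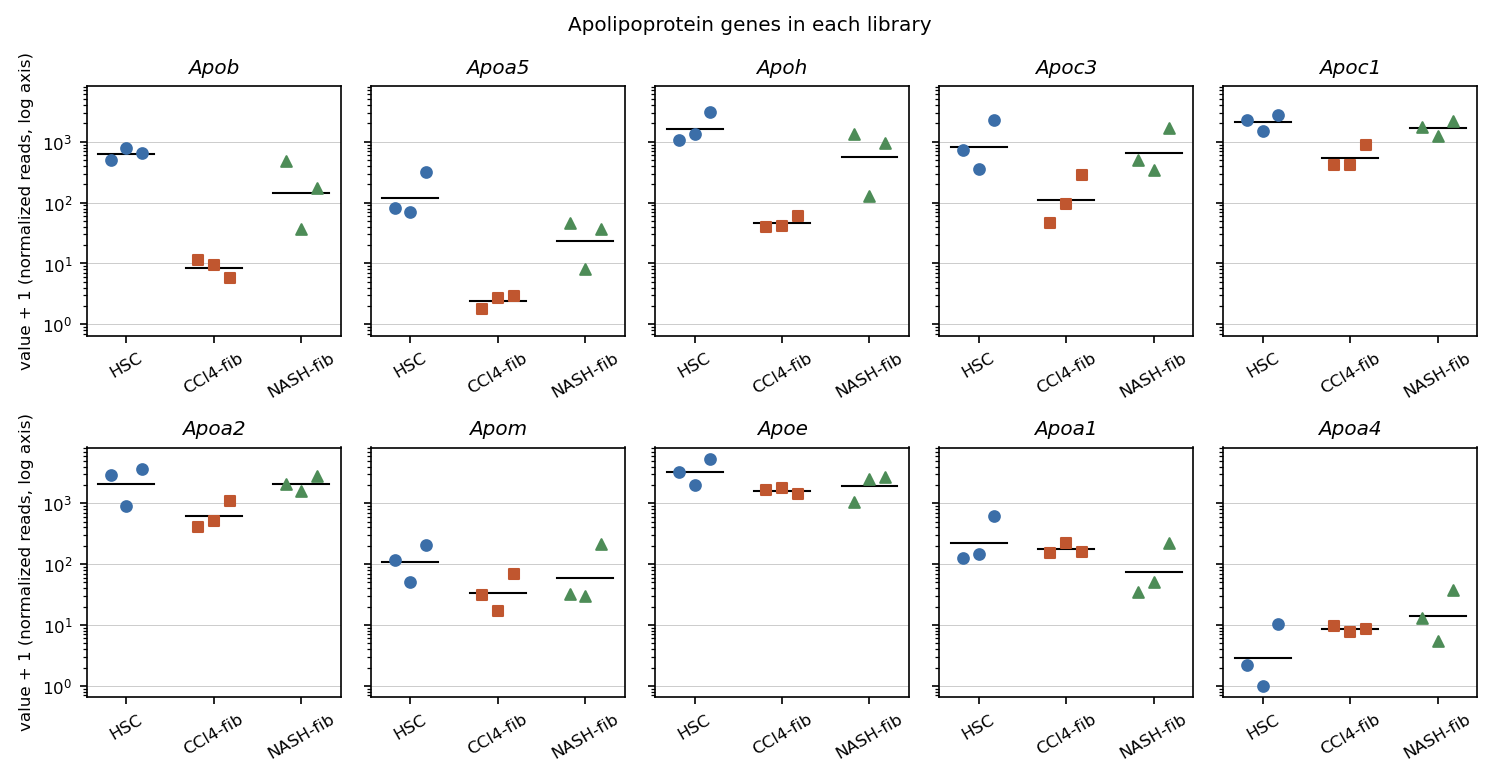
Normalized reads plus 1 (log axis) of the 10 apolipoprotein genes in each library, with replicates 1 to 3 from left to right in each group and the geometric mean of the group as a line. For Apob, Apoa5 and Apoh every CCl4-fib library lies below every HSC and NASH-fib library, while for Apoe and Apoa1 the group means lie closer together.

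CCl4-fib was compared with HSCs to see how these genes stand in fibroblasts of a chemically induced fibrosis. Apob, Apoa5 and Apoh were lower in CCl4-fib by the largest amounts, the genes of the small exchangeable apolipoproteins Apoc1, Apoc3 and Apoa2 by less, and Apoe, Apoa1 and Apom did not pass the test. By limma with Benjamini-Hochberg adjustment over 13651 genes, 6 of the 9 members tested were called lower (adjusted p under 0.05 and a log2 fold change past 1 or -1) and 0 higher, beside 11.7% of all genes called lower and 16.2% called higher. The median log2 fold change was -1.98 over the 9 members and 0.18 over all genes tested. Values of CCl4-fib lay below all HSC values for 6 of the 9 members and for 20.9% of all genes.

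Apob, which encodes the scaffold of the very low density lipoprotein, had 493, 799 and 656 normalized reads in HSC replicates 1, 2 and 3 and 10.3, 8.51 and 4.77 in CCl4-fib. No library of one group came near the other, and the log2 fold change was -6.23 ± 0.77 (SE) with an adjusted p of 0.000275. Apoa5, an activator of triglyceride breakdown, had 79.5, 69.9 and 312 normalized reads in HSCs and 1, 2 and 2 reads (0.79, 1.7 and 1.91 normalized reads) in CCl4-fib. The 3 CCl4-fib libraries hold so few reads that the fitted log2 fold change (-5.65 ± 0.80, adjusted p = 0.000597) depends on the pseudocount: it was -6.20 with 0.25 and -3.53 with 10 in place of 1. Relative to all reads on genes, HSCs had 110-fold the Apoa5 reads of CCl4-fib, with an exact 95% interval of 46.9 to 342 that covers counting error only. Without HSC replicate 3, its highest HSC library, the log2 fold change of Apoa5 was -4.97 and it was still called. Apoh encodes beta-2-glycoprotein I, a plasma protein that binds anionic phospholipids, and had 1081, 1357 and 3024 normalized reads in HSCs and 38.9, 40.0 and 58.2 in CCl4-fib. The groups did not overlap, and the log2 fold change was -5.16 ± 0.77 (adjusted p = 0.000812).

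Apoc1, an inhibitor of lipoprotein lipase and of remnant uptake, had 2305, 1513 and 2712 normalized reads in HSCs against 418, 407 and 891 in CCl4-fib (log2 fold change -1.98 ± 0.41, adjusted p = 0.00487). Here CCl4-fib replicate 3 was the highest of its group and still lay below every HSC library. Apoc3, which slows the clearance of triglyceride-rich particles, had 734, 352 and 2233 normalized reads in HSCs against 46.0, 95.3 and 281 in CCl4-fib. The spread within both groups was wide, the groups did not overlap, and the log2 fold change was -2.94 ± 0.84 (adjusted p = 0.0251). This call was lost without HSC replicate 1 (adjusted p = 0.0599), HSC replicate 3 (0.0707), CCl4-fib replicate 1 (0.103) or CCl4-fib replicate 2 (0.0783), and the log2 fold change ran from -3.63 without CCl4-fib replicate 3 to -2.23 without HSC replicate 3. Apoa2, a main protein of high density lipoproteins, had 2917, 885 and 3588 normalized reads in HSCs against 404, 509 and 1102 in CCl4-fib. The groups overlapped, since HSC replicate 2 lay below CCl4-fib replicate 3, and the log2 fold change was -1.78 ± 0.56 (adjusted p = 0.0373). Leaving out HSC replicate 1, HSC replicate 3, CCl4-fib replicate 1 or CCl4-fib replicate 2 ended the call of Apoa2, with adjusted p of 0.122, 0.101, 0.14 and 0.121, and without HSC replicate 2 its log2 fold change was -2.41 (0.00535).

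Apoe had 3225, 1995 and 5361 normalized reads in HSCs and 1637, 1765 and 1423 in CCl4-fib. All 3 CCl4-fib libraries were below all HSC libraries, and they were close to each other. The log2 fold change of Apoe was -1.02 ± 0.46 with a 95% interval of -2.03 to -0.01, and its adjusted p of 0.12 did not pass, while DESeq2 with its own size factors called it (log2 fold change -1.22, adjusted p = 0.0274). Apoa1, the main protein of high density lipoproteins and the activator of cholesterol esterification in plasma, had 127, 144 and 616 normalized reads in HSCs and 149, 225 and 158 in CCl4-fib. Every CCl4-fib library lay within the range of the HSCs, whose replicate 3 stood apart, and the log2 fold change of -0.36 ± 0.75 had a 95% interval of -2.02 to 1.30. Without HSC replicate 3 it was 0.36 (adjusted p = 0.717). Apom, the carrier of sphingosine-1-phosphate on high density lipoproteins, had 116, 49.5 and 206 normalized reads in HSCs and 30.2, 16.2 and 68.7 in CCl4-fib, which overlap (log2 fold change -1.68 ± 0.85, adjusted p = 0.166). Apoa4, which is made mainly in the intestine, was at 1, 0 and 8 reads in HSCs, against 11, 8 and 8 in CCl4-fib, while NASH-fib had 9, 5 and 37. The filter on low counts left Apoa4 out of the test. A difference in Apoa4 was therefore not tested in the main fit. Its mean was 3.58 normalized reads in HSCs, 7.72 in CCl4-fib and 17.7 in NASH-fib. It was thus lowest in HSCs, where the other members all had their highest mean. Without this filter Apoa4 was tested in CCl4-fib against HSCs and was not called.

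**Figure D2:**
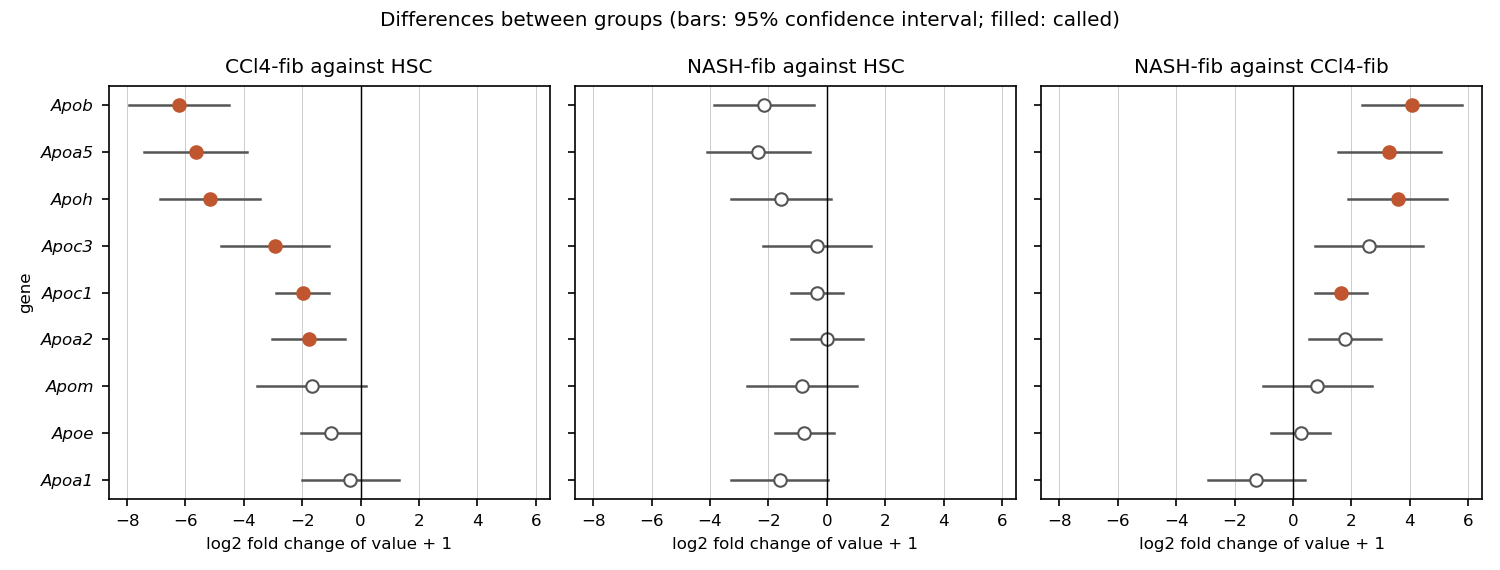
Log2 fold changes of normalized reads plus 1 for the 9 apolipoprotein genes tested in the 3 comparisons of 3 libraries against 3; bars are 95% confidence intervals and filled points are called. In CCl4-fib against HSC the estimates run from -6.23 for Apob to -0.36 for Apoa1, and in NASH-fib against HSC no point is filled.

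NASH-fib was compared with HSCs for the fibroblasts of the diet-induced model. Of the 9 members tested by limma, 0 were called in either direction, and 2 (Apob and Apoa5) had an unadjusted p under 0.05. Over all genes 4.3% were called lower and 8.23% higher. DESeq2 called 1 member (Apoa5, log2 fold change -2.26, adjusted p = 0.037) and edgeR called 0. The median log2 fold change of the members was -0.85, against -0.02 over all genes tested. NASH-fib lay wholly below HSCs for 2 members and for 11.6% of all genes. Apob had 473, 35.6 and 173 normalized reads in NASH-fib replicates 1, 2 and 3, and replicate 1 was only just below the lowest HSC library. Its log2 fold change was -2.14 ± 0.77 (adjusted p = 0.111), and without NASH-fib replicate 1 it was -3.0 and called (adjusted p = 0.0108). Apoa5 had 44.9, 7.13 and 35.4 normalized reads in NASH-fib (log2 fold change -2.35 ± 0.80, adjusted p = 0.0912). In both genes replicate 2 was the lowest NASH-fib library, as it was in the sum of the hepatocyte markers. Of these markers Ahsg, Ambp, Hal and Tat were lowest in replicate 1 instead. The estimate for Apoa2 was -0.00 ± 0.56 with a 95% interval of -1.24 to 1.24, and over the scalings tried it ran from -0.09 to 0.06. The limit on reads per position can hide part of a difference in Apoa2. Apoa1 had 34.0, 50.8 and 222 normalized reads in NASH-fib, so that 2 libraries lay below every HSC library and replicate 3 within their range. Its log2 fold change was -1.61 ± 0.75 (adjusted p = 0.239). Apoe had 1056, 2490 and 2658 normalized reads, of which only replicate 1 was below the HSCs (log2 fold change -0.77 ± 0.46, adjusted p = 0.388). For Apoh (1361, 128 and 953) only replicates 2 and 3 were below the HSCs, and the log2 fold change was -1.58 ± 0.77 (adjusted p = 0.269). The remaining members Apoc1, Apoc3 and Apom had log2 fold changes between -0.85 and -0.33 and overlapped with HSCs.

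The direct comparison of NASH-fib with CCl4-fib asked whether the 2 models differ. Apob, Apoh, Apoa5 and Apoc1 were higher in NASH-fib, and Apoe and Apoa1 did not pass. By limma 4 of 9 members were called higher and 0 lower, beside 4.97% of all genes called higher and 5.66% called lower. NASH-fib lay wholly above CCl4-fib in 6 of 9 members and in 17.1% of all genes, and the median log2 fold change was 1.78 over the members and -0.11 over all genes. The 2 comparisons with CCl4-fib share these libraries, so their values for a gene are not independent. The log2 fold change was 4.08 ± 0.77 for Apob (adjusted p = 0.0141), 3.59 ± 0.77 for Apoh (0.0208), 3.30 ± 0.80 for Apoa5 (0.0291) and 1.65 ± 0.41 for Apoc1 (0.0313). Relative to all reads on genes, NASH-fib had 18.7-fold the Apoa5 reads of CCl4-fib, with an exact 95% interval of 7.66 to 59.1 for counting error. NASH-fib replicate 2 lay between the other libraries and CCl4-fib in these 3 large differences, and without it the log2 fold change was 5.07 for Apob, 4.63 for Apoh and 4.08 for Apoa5. Without NASH-fib replicate 1 it was 3.23 for Apob, 2.94 for Apoh and 2.83 for Apoa5.

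Apoc1 had 1718, 1257 and 2183 normalized reads in NASH-fib, all above the highest CCl4-fib library. Apoa2 had 2098, 1568 and 2804 and Apoc3 493, 342 and 1682 normalized reads in NASH-fib, each above every CCl4-fib library as well. Their log2 fold changes were 1.78 ± 0.56 (adjusted p = 0.0687) and 2.60 ± 0.84 (adjusted p = 0.0732) and did not pass, whereas DESeq2 called both (adjusted p = 0.0123 and 0.00869). Apoe differed by 0.26 ± 0.46 (95% interval -0.75 to 1.26) and Apoa1 by -1.25 ± 0.75 (-2.91 to 0.41). Apom had 31.3, 29.4 and 213 normalized reads in NASH-fib and differed by 0.83 ± 0.85, and without NASH-fib replicate 3 by -0.09. Leaving out a library ended some calls in this comparison, of the members and over all genes. Apob was not called without CCl4-fib replicate 2 (log2 fold change 4.16, adjusted p = 0.0568) or NASH-fib replicate 3 (3.95, adjusted p = 0.0559). Apoh was not called without either of these (3.51 and 3.19, adjusted p = 0.0839 and 0.0747) or CCl4-fib replicate 1 (3.49, adjusted p = 0.0666). Apoc1 and Apoa5 lost their calls without CCl4-fib replicate 1, CCl4-fib replicate 2, NASH-fib replicate 1 or NASH-fib replicate 3 (adjusted p from 0.0642 to 0.137, with log2 fold changes of 1.46 to 1.63 for Apoc1 and 2.83 to 3.39 for Apoa5), and Apoa5 also without CCl4-fib replicate 3 (adjusted p = 0.0661). In all, 0 members were called without CCl4-fib replicate 2 or without NASH-fib replicate 3, where 6 and 7 had an unadjusted p under 0.05. Over all genes 678 were called higher and 773 lower with all libraries, 140 and 72 without CCl4-fib replicate 2, and 113 and 156 without NASH-fib replicate 3. The count of members was 1 when CCl4-fib replicate 1 was left out and 2 when it was NASH-fib replicate 1. Those 2 fits called 337 and 326 of all genes higher and 195 and 358 lower. With all libraries, Apoa5 lost its call with a pseudocount of 10 in place of 1. Apoc1 lost its call when the prior spread of limma did not follow the mean level. These settings called 714 and 616 of all genes higher and 1112 and 720 lower. The column name of each library begins with what reads as a date, and what was done then is not stated. With this prefix as a term, 2 members (Apob and Apoh) were called here and 5 in CCl4-fib against HSCs. Calls over all genes fell as well, to 344 higher and 249 lower here. In CCl4-fib against HSCs they fell from 2209 higher and 1592 lower to 1422 and 1054. A single prefix covers all 3 groups, with 1 library each.

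Apoe and Apoa1 each took a larger share of the apolipoprotein reads in every CCl4-fib library than in any HSC library, while the test of Apoe against the other members over the 3 groups did not pass. Apoe took 29.1%, 27.8% and 28.6% of the reads on the 10 genes in HSC replicates 1, 2 and 3, and 59.7%, 57.4% and 35.6% in CCl4-fib. In NASH-fib its share was 14.4%, 42.1% and 24.2%, on both sides of the HSC shares. Apoa1 took 1.15%, 2.01% and 3.29% in HSCs, against 5.44%, 7.33% and 3.96% in CCl4-fib, while NASH-fib had 0.464%, 0.859% and 2.03%, so that every CCl4-fib library was above every other library. On the log2 scale, Apoe exceeded the mean of the other 9 genes by 3.36 ± 0.27 (SD, n = 3) in HSCs, 5.02 ± 0.53 in CCl4-fib and 3.36 ± 1.34 in NASH-fib. An exact two-sided permutation test of this log2 ratio over the 3 groups gave p = 0.121, where the smallest p possible is 0.00357. NASH-fib replicate 2 stood apart at 4.88, against 2.33 and 2.87 in replicates 1 and 3, and without it the exact p was 0.00714.

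**Figure D3:**
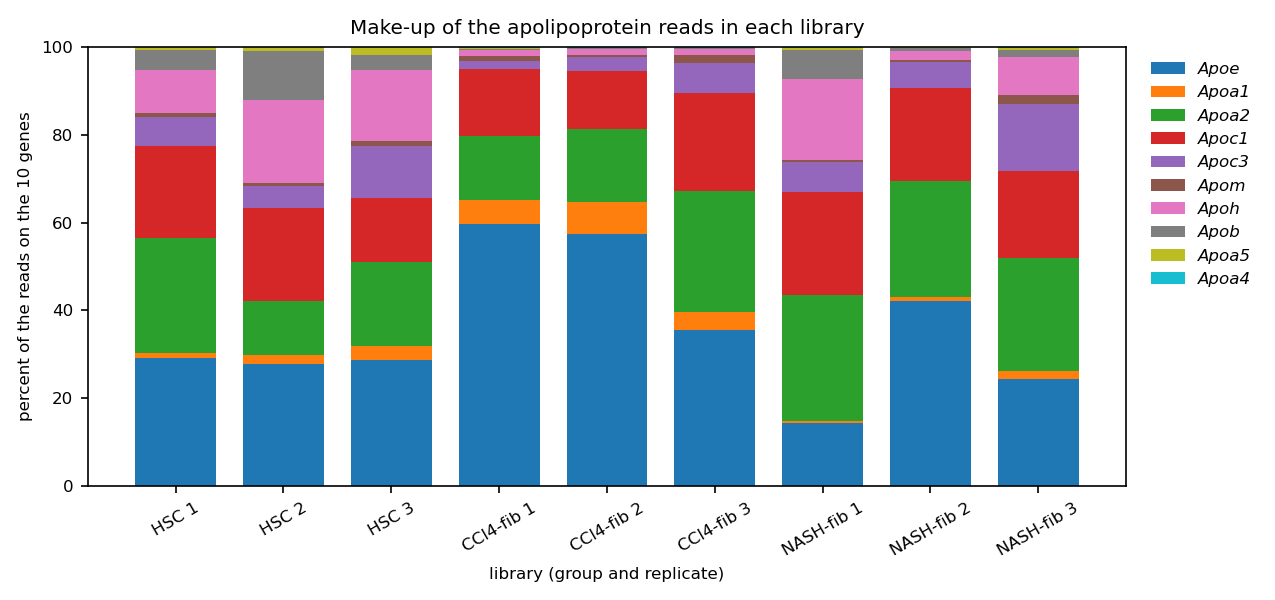
Percent of the reads on the 10 apolipoprotein genes that fell on each gene, per library, stacked to 100%. Apoe and Apoa1 at the bottom take a larger part in CCl4-fib replicates 1 and 2, and Apoh and Apob near the top a smaller part in all CCl4-fib libraries than in HSCs.

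Since hepatocyte markers moved with the groups, each gene was also set against their sum. These markers had a median log2 fold change of -4.14 in CCl4-fib against HSCs, against 0.18 over all genes tested. A gene that did not change would thus also stand higher against their sum in CCl4-fib. Apoe was 13.1%, 5.55% and 10.3% of the sum of the 15 hepatocyte markers in HSC replicates 1, 2 and 3, against 75.6%, 85.6% and 47.2% in CCl4-fib, while NASH-fib had 2.91%, 31.8% and 7.6%. All CCl4-fib libraries were above all others. Apoa1 was likewise 0.401% to 1.19% of that sum in HSCs, 5.25% to 10.9% in CCl4-fib and 0.0935% to 0.649% in NASH-fib. Every CCl4-fib library was above all others for Apoc1 (19.3% to 29.5%, against at most 16.1%) and Apom (0.784% to 2.28%, at most 0.61%). This held for Apoa4 too (0.253% to 0.403%, against at most 0.104%), at few reads. Apoa2 had 18.7% to 36.5% in CCl4-fib, above every HSC library but overlapping with NASH-fib. Apob went the other way, with 2.01%, 2.22% and 1.27% in HSCs, against 0.477%, 0.413% and 0.158% in CCl4-fib, while NASH-fib had 1.3%, 0.456% and 0.494%. Apoh had 3.77% to 5.83% in HSCs, 1.8% to 1.94% in CCl4-fib and 1.64% to 3.74% in NASH-fib. Apoa5 had 0.194% to 0.602% in HSCs, 0.0365% to 0.0825% in CCl4-fib and 0.0912% to 0.123% in NASH-fib. Apoc3 overlapped between the groups, at 0.98% to 4.31% in HSCs and 2.13% to 9.33% in CCl4-fib. The log2 ratio of Apoe to the mean of the hepatocyte markers was 1.51 ± 0.81 (SD, n = 3) in HSCs, 4.19 ± 0.41 in CCl4-fib and 1.38 ± 1.51 in NASH-fib, and the exact two-sided permutation p was 0.05, just not under the limit (0.0107 without NASH-fib replicate 2). For the other 9 genes together the log2 ratio was -1.85 ± 0.78, -0.83 ± 0.16 and -1.98 ± 0.18, with an exact permutation p of 0.0679. This p was 0.00357 without HSC replicate 2 and 0.0357 without HSC replicate 1. With the mean level of the hepatocyte markers as a term in the fit across all genes, 0 members were called in any comparison (0, 1 and 1 with an unadjusted p under 0.05, in the order above). The same fit called 0 of all 13651 genes in CCl4-fib against HSCs (1265 with an unadjusted p under 0.05) and 0 in NASH-fib against CCl4-fib (585), so that the lost calls were not particular to the members. In it the log2 fold change of Apob between CCl4-fib and HSCs was -3.24 (adjusted p = 0.634). That level itself differs between the groups, 12 of the 15 markers being called lower in CCl4-fib than in HSCs with a median log2 fold change of -4.14.

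**Figure D4:**
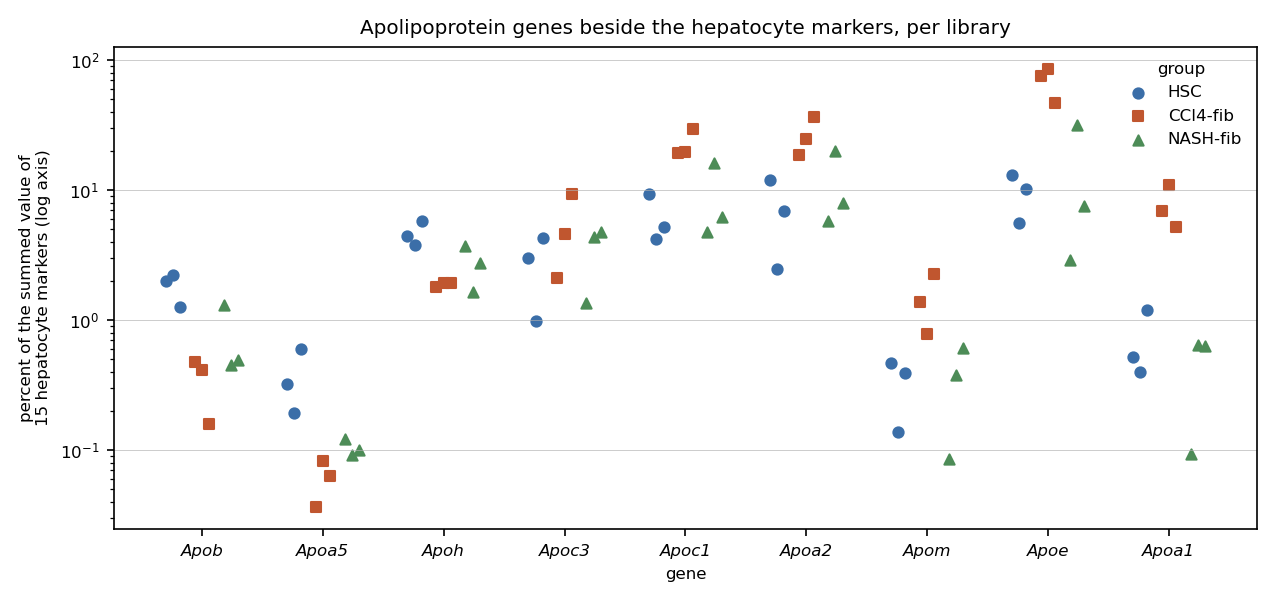
Each apolipoprotein gene as a percent of the summed value of 15 hepatocyte markers (log axis), 1 point per library and 3 libraries per group. Apoe, Apoa1, Apoc1 and Apom lie higher in all CCl4-fib libraries than in the others, and Apob, Apoa5 and Apoh lie lower in CCl4-fib than in HSCs. The markers are lower in CCl4-fib, so a gene that did not change would lie higher there as well.

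Neighbours in the genome differed in how alike their values were. Over the 9 libraries the correlation of log2 normalized reads was 0.26 between Apoa1 and Apoc3, 0.218 between Apoa1 and Apoa5, 0.849 between Apoa5 and Apoc3 and 0.548 between Apoc1 and Apoe. Among all pairs of the 9 genes it was highest between Apoa5 and Apoh, at 0.982, and lowest between Apoa1 and Apob, at 0.014. These correlations are descriptions over 9 libraries that share the group differences and the levels of other cells. By the same measure the gene nearest to Apoh was Ugt2b34 (0.995), that nearest to Apoa5 was Masp2 (0.99), and that nearest to Apoc3 was Bco2 (0.98), all known from hepatocytes. Nearest to Apob were Mrc1 (0.994), Adgrg3 (0.991) and Lyve1 (0.987), of which Mrc1 and Lyve1 mark sinusoidal endothelial cells or macrophages. Nearest to Apoe was Abcg1 (0.972), a cholesterol transporter, nearest to Apoc1 was Igsf6 (0.978), nearest to Apom was Cyp8b1 (0.947), an enzyme of bile acid synthesis, and nearest to Apoa1 was Cd1d1 (0.928).

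Other apolipoproteins and the acute phase serum amyloid A proteins did not all go the same way. Of 16 tested in CCl4-fib against HSCs, 5 were called higher and 3 lower, with a median log2 fold change of 0.39. For this list and those below, 16.2% of all genes were called higher and 11.7% lower in that comparison. These shares were 8.23% and 4.3% in NASH-fib against HSCs, and 4.97% and 5.66% in NASH-fib against CCl4-fib. Apon and Apof, both secreted by hepatocytes, were called lower (Apof not by DESeq2), with 115, 96.1 and 308 normalized reads of Apon in HSCs and 0, 12.8 and 5.72 in CCl4-fib. Apod, a lipocalin made by many cell types, had 9.35, 0 and 0 normalized reads in HSCs, against 299, 110 and 12.4 in CCl4-fib, while NASH-fib had 324, 234 and 258. It was called higher in both fibroblast groups (adjusted p = 0.00759 and 0.00235). Saa3, an acute phase protein that stromal cells also make, had 23.4, 35.0 and 35.9 normalized reads in HSCs, against 3053, 3797 and 4256 in CCl4-fib, while NASH-fib had 20.4, 444 and 109. Its level in CCl4-fib was thus above that in both other groups, with log2 fold changes of 6.85 ± 0.85 (adjusted p = 0.000265) against HSCs and, for NASH-fib against CCl4-fib, -5.17 ± 0.85 (adjusted p = 0.01). Saa4 was lowest in CCl4-fib, with 120, 204 and 416 normalized reads in HSCs, against 1.59, 6.8 and 26.7 in CCl4-fib, while NASH-fib had 258, 108 and 472. In NASH-fib against HSCs limma called 2 of the 16 higher (Apod and Apol11b) and 0 lower, while DESeq2 also called Apol9a and Saa3, and in NASH-fib against CCl4-fib 2 were called higher and 1 lower. The lipoprotein lipase activator Apoc2, which shares 646 of 813 exonic bases with Gm44805, was among the higher, with 283, 185 and 920 normalized reads in NASH-fib, against 42.1, 51.0 and 63.9 in CCl4-fib (log2 fold change 2.80 ± 0.75, adjusted p = 0.0412).

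Among 16 genes of particle assembly and secretion, 4 were called lower and 2 higher in CCl4-fib than in HSCs (median log2 fold change 0.34). The shares of all genes were 11.7% lower and 16.2% higher. The lower genes included both parts of the enzyme that edits Apob mRNA. Apobec1, its cytidine deaminase, had 835, 668 and 534 normalized reads in HSCs, against 51.6, 43.4 and 8.59 in CCl4-fib, while NASH-fib had 205, 217 and 226, 3 groups without overlap. Its cofactor A1cf had 22.2, 165 and 90.9 normalized reads in HSCs, against 0, 2.55 and 2.86 in CCl4-fib, while NASH-fib had 328, 29.4 and 234. Apobec1 and A1cf were both called lower in CCl4-fib than in HSCs (adjusted p = 0.000315 and 0.00524) and higher in NASH-fib than in CCl4-fib (0.0159 and 0.012). P4hb, a subunit of the triglyceride transfer complex and a folding enzyme of collagen, was called higher in CCl4-fib than in HSCs (log2 fold change 1.78 ± 0.57, adjusted p = 0.0388). Mttp, the lipid-transferring subunit of that complex, had 67.8, 94.7 and 319 normalized reads in HSCs and 32.5, 42.5 and 43.9 in CCl4-fib, which do not overlap, and it did not pass by limma (adjusted p = 0.0766) but was called by DESeq2. In NASH-fib against HSCs limma called Sort1 alone, a sorting receptor of the Golgi (log2 fold change 2.94 ± 0.69, adjusted p = 0.0176), and DESeq2 called Apobec1 as well, and in NASH-fib against CCl4-fib 3 of the 16 were called higher and 2 lower.

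Of 13 genes of lipolysis and remodelling, 5 were called lower and 2 higher in CCl4-fib than in HSCs (median log2 fold change -0.09). The shares of all genes were 11.7% lower and 16.2% higher. Lpl, the lipase that hydrolyses lipoprotein triglycerides, was higher, with 1257, 1728 and 1019 normalized reads in HSCs and 2592, 3994 and 4156 in CCl4-fib (log2 fold change 1.43 ± 0.34, adjusted p = 0.0101). Its endothelial anchor Gpihbp1 was lower, with 1924, 226 and 2739 against 12.7, 11.9 and 23.9 (adjusted p = 0.00114). Angptl4, a secreted inhibitor of Lpl, was called higher (log2 fold change 3.91 ± 0.71). In NASH-fib against HSCs 0 of the 13 were called by limma, DESeq2 or edgeR. By limma 2 had an unadjusted p under 0.05, Lipg (log2 fold change -2.72, adjusted p = 0.0955) and Pon1 (-2.66, adjusted p = 0.137). Both had all NASH-fib libraries below the HSCs, as had 11.6% of all genes, and Lipg had only 5, 1 and 2 reads in NASH-fib. In NASH-fib against CCl4-fib 3 of the 13 were called higher and 1 lower.

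Vldlr, Sorl1 and Lrp2 had the largest increases of the receptors and transporters in both fibroblast groups. Of 18 tested, 8 were called higher and 2 lower in CCl4-fib, and 3 higher and 1 lower in NASH-fib, both against HSCs, with median log2 fold changes of 0.69 and 0.46. Vldlr, a receptor that binds ApoE-carrying particles, had 1.17, 0 and 1.2 normalized reads in HSCs, against 124, 129 and 136 in CCl4-fib, while NASH-fib had 336, 211 and 183. Almost no read fell on it in HSCs, and it was called in both models (adjusted p = 2.86e-05 and 1.67e-05). Lrp2, the endocytic receptor megalin, had 32.7, 11.7 and 17.9 normalized reads in HSCs, against 202, 269 and 227 in CCl4-fib, while NASH-fib had 784, 517 and 704. The 3 groups did not overlap, and Lrp2 was called higher in each comparison, with log2 fold changes of 3.53 ± 0.42 and 5.04 ± 0.42 against HSCs and 1.51 ± 0.42 between the models. Epithelial cells such as cholangiocytes express Lrp2, and their markers had the same order of groups; their part in this value was not tested. Mylip, a ubiquitin ligase that liver X receptors induce, was called lower in both models, with 1494, 2422 and 1071 normalized reads in HSCs, against 341, 180 and 135 in CCl4-fib, while NASH-fib had 564, 279 and 299. In NASH-fib against CCl4-fib 2 receptors were called higher and 2 lower, beside 4.97% and 5.66% of all genes.

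Among the transcription factors of the liver and of lipid metabolism, Hnf4a, Ppara and Nr5a2 were lower in CCl4-fib by the largest amounts. Of 20 tested, 7 were called lower and 1 higher against HSCs (15 in all by DESeq2), with a median log2 fold change of -1.43, or -1.38 with the 2 genes that had no read in a group set at 3 reads per library there. The shares of all genes were 11.7% lower and 16.2% higher. Hnf4a, a main activator of apolipoprotein genes in hepatocytes, had 78.3, 434 and 191 normalized reads in HSCs, against 3.17, 21.3 and 11.5 in CCl4-fib, while NASH-fib had 124, 35.6 and 108. It was called lower in CCl4-fib (log2 fold change -4.16 ± 0.80, adjusted p = 0.00334) and higher in NASH-fib than in CCl4-fib (2.92 ± 0.80, adjusted p = 0.0431). Ppara, the receptor by which fibrates act on Apoc3 and Apoa5, had 106, 216 and 263 normalized reads in HSCs, against 9.52, 21.3 and 11.5 in CCl4-fib, while NASH-fib had 181, 37.4 and 169 (adjusted p = 0.00223 for CCl4-fib against HSCs). Nr1h4, the bile acid receptor, was called lower in both models, with 4554, 1038 and 3117 normalized reads in HSCs, against 237, 346 and 268 in CCl4-fib, while NASH-fib had 158, 224 and 421. It was the single factor of the 20 that limma called in NASH-fib against HSCs, where DESeq2 called 3 (log2 fold change -3.31 ± 0.55, adjusted p = 0.0025). In NASH-fib against CCl4-fib 4 of the 20 were called higher and 1 lower (9 in all by DESeq2), Nr5a2 being also among the higher.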

How the data were processed

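Total RNA from pooled HSCs and sorted fibroblasts was amplified (SMARTer kit). By their methods the authors aligned single-end reads with STAR (mm10) and used HOMER on RefSeq genes, and per the file header it counted reads over exons, on either strand and with at most 3 reads per position. The deposited values are a signal per gene and library, those counts normalized for DESeq2 over 10 libraries, of which 9 are columns here. Divided by the value of a single read, 100% of them were whole reads (tolerance 0.006). limma 3.58.1 (R 4.3.3) was run on log2(value + 1) of the 13651 genes kept by filterByExpr of edgeR (minimum count 10), in 1 fit over the 3 groups, with adjustment over all of these genes. The test was checked on simulated data. On the recovered reads, edgeR 4.0.16 and DESeq2 1.42.0 were alternatives, beside other pseudocounts, filters, scalings and terms and each library left out. Ratios were compared by exact permutation over 1680 assignments. The members, gene lists and markers were chosen with earlier results of these data known. All members were named, and of each list up to 3 called genes per comparison and direction. Mttp and Lipg were named after their values were seen. Some genes of these lists are not reported here by name. Replicates are pools of mice.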

Additional observations from a re-analysis of the deposited data

How the results depend on the processing

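Of the log2 fold changes of single genes under up to 23 alternatives for each comparison, 538 kept direction and side of the threshold, 36 kept the direction and no longer passed, 10 kept it and came to pass, and 18 changed sign. With the hepatocyte marker level as a term the sign changed in CCl4-fib against HSCs for Apoa1 (2.79), Apoc3 (0.65) and Apom (1.80), in NASH-fib against HSCs for Apoa2 (0.20) and Apoc3 (0.28), and in NASH-fib against CCl4-fib for Apoc3 (-0.37), Apoh (-0.09) and Apom (-2.04). Apoa2 in NASH-fib against HSCs, at -0.00, was 0.06 with TMM, 0.01 with upper-quartile scaling and 0.10 with the label prefix as a term. With a library left out the sign changed for Apoa1 in CCl4-fib against HSCs (-0.77 to 0.36), Apoa2 and Apoc3 in NASH-fib against HSCs (-0.62 to 0.38 and -1.02 to 0.37) and Apom in NASH-fib against CCl4-fib (-0.09 to 1.36). Apart from Apoc3 in CCl4-fib against HSCs and Apoh, none of these was called with all libraries. With the hepatocyte term the counts of called members fell from 6 and 4 to 0 and 0, as did those of all genes in these comparisons. That level differs between the groups, so the term takes up part of the group difference by construction. In CCl4-fib against HSCs the count of 6 was between 4 and 6 with each library left out. In NASH-fib against HSCs the count of 0 was 1 with DESeq2 and 0 to 1 with a library left out (1 without NASH-fib replicate 1). In NASH-fib against CCl4-fib the count of 4 was 2 with an average RPKM over 100, where fewer genes are tested, 2 with the label prefix as a term (the cause was not tested), and 0 to 5 with a library left out. With the prefix, calls over all genes fell from 678 higher and 773 lower to 344 and 249. The exact p of the log2 ratio of Apoe to the other members ran from 0.00714 to 0.246 with a library left out, that of Apoe to the hepatocyte markers from 0.0107 to 0.114, and that of the other members to the hepatocyte markers from 0.00357 to 0.171, and the last was 0.0321 with a pseudocount of 10. The replicate numbers do not pair the samples, since the correlations of deviations between same-numbered libraries ran from -0.473 to 0.514. A fit with the replicate block called 7, 0 and 6 members in the 3 comparisons in the order of the text, against 6, 0 and 4 without it. Of all genes it called 1915, 1017 and 472 higher and 1397, 470 and 457 lower. Without it these were 2209, 1124 and 678 higher and 1592, 587 and 773 lower. With this block the exact permutation p of the 3 ratios was 0.167, 0.139 and 0.194. In the other lists DESeq2 and limma differed by over 1.5 times for the transcription factors (15 against 8 in CCl4-fib against HSCs, 3 against 1 in NASH-fib against HSCs, 9 against 5 in NASH-fib against CCl4-fib), in NASH-fib against HSCs for other apolipoproteins (4 against 2) and assembly genes (2 against 1), and in NASH-fib against CCl4-fib for cholangiocyte (5 against 3) and quiescent stellate markers (3 against 0). For edgeR and limma this held in NASH-fib against CCl4-fib for assembly genes (3 against 5), receptors (2 against 4) and activated fibroblast markers (1 against 4), and in NASH-fib against HSCs for macrophage (1 against 4) and hepatocyte markers (0 against 1). The low counts of Apoa4, and of Apoa5 in CCl4-fib, limit what can be said of them, and the limit of 3 reads per position compresses differences of Apoa2, Apoc1 and Apoe. It also compresses Saa3 (8.5 reads per base in its highest library) and the hepatocyte markers Alb (5.36) and Cyp2e1 (5.03). In their lowest library, of CCl4-fib, these 2 markers had 0.355 and 0.052 reads per base. Their sum is thus compressed less in CCl4-fib, and the effect on the percents of that sum was not tested.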
